A study of Nannochloropsis oceanica with 12 samples.

Results

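Wild-type (WT) cells of the marine alga *Nannochloropsis oceanica*, strain IMET1, were put into fresh medium and followed from 12 h to 24 h, the unperturbed time course of the study. Cultures of both lines of the study were kept at 25 °C in continuous light of about 80 µmol photons per square metre and second and bubbled with 5% CO2, before and after the transfer. The WT libraries were chosen by their titles and make up 6 of the 12 labelled samples, 3 at 12 h and 3 at 24 h, called biological replicates in the labels. The other 6 samples come from M2, a single RNA interference line against the carbonic anhydrase CA2, sampled at the same times. M2 serves here to estimate spread, to test whether WT changed differently and for comparison. It also enters the scaling and the filter, and gives the levels by which genes are grouped. Because replicate 3 of WT at 12 h stood apart, replicates 1 and 2 are the 12 h libraries of every main result, and replicate 3 enters as a check. The treatment text attached to the samples tells of a different layout, with a very low CO2 level and more times, and the labels give whole cells as the tissue but nuclear RNA as the molecule subtype, so which RNA fraction was measured is not settled.

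*Nannochloropsis* is a small unicellular eustigmatophyte that stores carbon as triacylglycerol and is studied as an oil-producing alga. A transfer to fresh medium gives the cells new nitrate, phosphate and trace metals, which they draw down as the culture grows. At high CO2 the machinery that concentrates inorganic carbon in algae, of which carbonic anhydrases are a part, is known to be less needed than in air.

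The values are FPKM, sequenced fragments of a gene per unit of its length and of the library’s mapped fragments, of poly(A) RNA for 9756 genes. Of their IDs, 9755 name a scaffold and a gene number and carry no gene name, and 1 ID, isotig00738.DGAT1A, names the gene. None (0) of them matched the 160 organelle genes of the reference table, so changes cannot be assigned to pathways here, and 2 risers and 2 fallers are shown by ID. The depth in reads is unknown.

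The 5 main WT libraries agreed closely within each time. On log2(FPKM + 1), 12 h replicates 1 and 2 correlated across genes at r = 0.995, and 24 h replicates at 0.996 to 0.997. Between times these libraries correlated at 0.949 to 0.951. The SD of the log2 ratio, over genes averaging at least 1 FPKM, was 0.176 between the 12 h replicates, 0.131 to 0.135 between 24 h replicates and 0.531 to 0.542 across time. Replicate 3 of WT at 12 h correlated with its own group at 0.715 and with the 24 h libraries at 0.756 to 0.757. Its FPKM sum was 780704, against 611691 to 617319 in the other WT libraries. It listed 538 genes at 0, whereas the other 12 h libraries listed 55 and 60 and the 24 h libraries 5 to 7.

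Between 12 h and 24 h most WT transcripts moved, and most moved little. Of 9579 genes tested (mean FPKM of at least 1 over the 10 fitted libraries), 6338 (66.2%) had a change called. Of these, 3175 were higher and 3163 lower at 24 h, or 33.1% and 33.0% of all tested genes, with limma and a Benjamini-Hochberg adjusted p under 0.05. Changes are on the scale of log2(scaled FPKM + 1), which understates those of low genes. The median log2 change was -0.002, the 25th and 75th percentiles were -0.28 and 0.34, and the 1st and 99th percentiles were -1.15 and 1.32. The median standard error was 0.0734. The scaling centres typical genes near 0, so each change is relative to the other transcripts and not an amount per cell.

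By size, 1023 of the 6338 called genes (16.1%) changed by less than 0.25 on the log2 scale, and another 2526 (39.9%) by 0.25 to 0.5. At least 2-fold changes were called for 338 risers and 164 fallers, or 3.53% and 1.71% of the genes tested. Larger changes were few: 19 genes rose and 10 fell at least 4-fold, and 6 rose and 2 fell at least 8-fold. Below 0.5, 1571 called genes rose and 1978 fell, so falls were the more frequent among small changes and rises among large ones. All called genes split into 3318 higher and 3013 lower with FPKM as deposited, 3284 and 3059 with equal sums and 3008 and 3298 with quantile normalization. Falls outnumbered rises below 0.5 (1896 to 1631, 1927 to 1615 and 1991 to 1620) and rises outnumbered falls at 2-fold (369 to 152, 358 to 155 and 276 to 191) under each of these scalings. In all 338 risers and all 164 fallers the values of the 12 h and 24 h libraries did not overlap, but 78.7% of all tested genes also had no overlap.

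**Figure D1:**
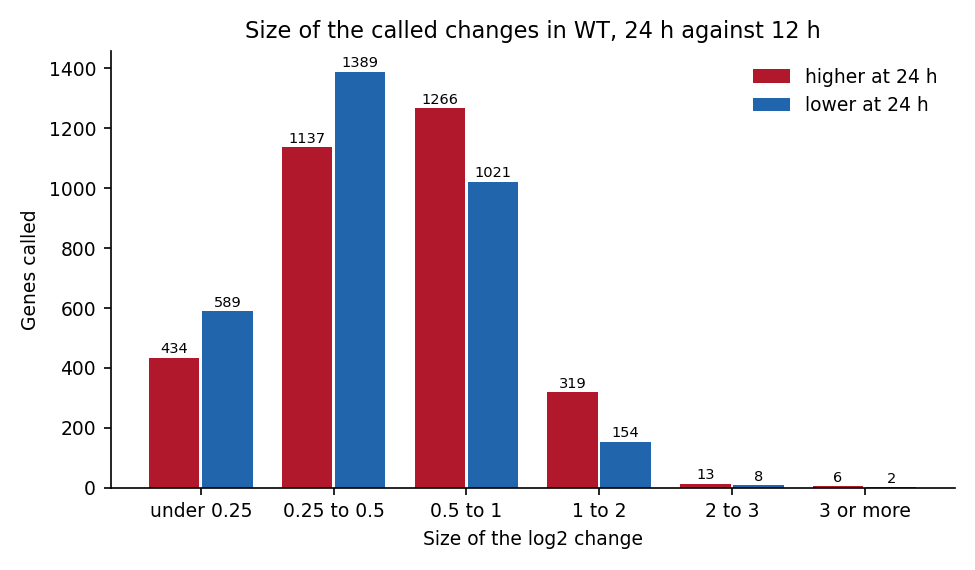
Number of genes called in WT (vertical axis) by the size of the log2 change between 12 h and 24 h (horizontal axis), with rises in red and falls in blue. Falls outnumber rises below 0.5 (589 against 434, and 1389 against 1137), and rises outnumber falls in every class from 0.5 up, with 319 against 154 between 1 and 2.

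A steady level could be shown for many genes, among them genes with a small called change. For 4936 genes (51.5%) the 95% confidence interval of the log2 change lay wholly within -0.5 to 0.5. Of these, 2113 were also called, as small changes, and 2823 were not. The remaining 418 uncalled genes had intervals too wide to show a steady level. Steady genes held 47.7% to 47.8% of the summed scaled FPKM in the 12 h libraries and 46.9% to 47.0% in the 24 h libraries.

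At 12 h the risers were lower than the fallers. The median riser went from 8.95 scaled FPKM at 12 h to 23.2 at 24 h, and the median faller from 53.9 to 19.9, beside 25.1 and 24.8 for all tested genes. At 12 h 108 of the 338 risers were under 5 FPKM, whereas 2 of the 164 fallers were. At 100 FPKM or more were 30 risers at 12 h and 55 at 24 h, and 50 fallers at 12 h and 17 at 24 h. A gene that rises starts low by the way it was chosen, so levels were also taken from M2. Its libraries enter the WT log2 change only through the scaling and the filter.

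Grouped by their level in M2, genes under 2 FPKM had a median log2 change of 0.56 in WT (114 genes). Of these, 20 (17.5%) rose and 1 fell at least 2-fold. Genes under 1 FPKM in M2 passed the filter only through higher WT values, and WT had more fitted libraries at 24 h than at 12 h. The filter thus favours rises in this lowest class. Genes of 2 to 5 FPKM had a median of 0.39 (448 genes), and 42 (9.38%) rose and 6 fell at least 2-fold. Genes of 5 to 20 FPKM had a median of 0.08, with 147 risers and 36 fallers among 3310. From 20 to 50 FPKM the median was -0.06, with 64 and 51 among 3221, and from 50 to 200 FPKM it was -0.10, with 40 and 53 among 2014. The 472 genes above 200 FPKM again had a median of -0.10, with 25 risers and 17 fallers. Their share of risers, 5.30%, was above the 4.44% of the 5 to 20 FPKM class and below those of the lower classes. Their median size of change, 0.512, exceeded the 0.273 of the 20 to 50 FPKM class. The rise of low genes depends on the scaling: quantile normalization, which gives every library the same distribution, put the 2 to 5 FPKM class at 0.06, and FPKM as deposited put it at 0.40.

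**Figure D2:**
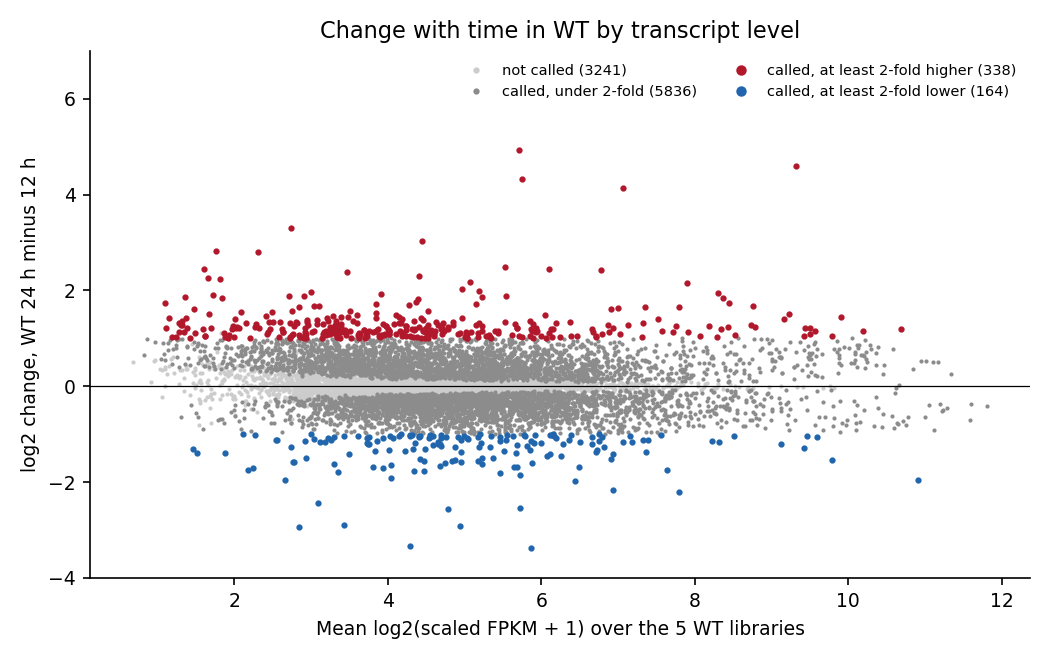
Each point is 1 of the 9579 tested genes, with its mean log2(scaled FPKM + 1) over the 5 WT libraries on the horizontal axis and its log2 change from 12 h to 24 h on the vertical axis. The 338 genes at least 2-fold higher (red) reach 4.93, the 164 at least 2-fold lower (blue) reach -3.38, and most points lie within 1 of no change.

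Genes listed at 0 in both main 12 h libraries had low values at 24 h too. Of 32 such genes, 28 were above 0 in all 24 h libraries. Only 2 genes were at 0 in all 24 h libraries, and 0 of these were above 0 in both main 12 h libraries. The median level of the 28 genes at 24 h was 0.606 FPKM and their highest mean was 2.30. Of them, 1 reached 1 FPKM in every 24 h library. None (0) of the 28 passed the filter on the mean, and 23 were also at 0 in 12 h replicate 3. As the number of genes at 0 differed between the times by library, the part of depth in this was not tested.

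The highest rise by fold among the named genes was that of scaffold00182.g5607, a gene with no name in the files. It had 6.10 and 5.35 scaled FPKM in the 12 h libraries and 210.1, 201.3 and 201.4 in the 24 h libraries. The groups lay far apart, with means of 5.73 ± 0.537 (SD, n = 2) and 204 ± 5.07 (SD, n = 3), a 35.7-fold ratio of means. The log2 change was 4.93 (limma adjusted p = 3.1e-13, SE 0.0689). By level it moved from rank 8772 of all genes to rank 452.

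The largest gain in transcript was in scaffold00069.g2456, which had 93.1 and 92.6 scaled FPKM at 12 h and 2309, 2227 and 2304 at 24 h. Here the 12 h values nearly coincided and every 24 h library was more than an order of magnitude higher. The log2 change was 4.60 (limma adjusted p = 6.3e-17, SE 0.0239), and the gene rose from rank 1167 to rank 10. It alone made up 2.26% of the summed gain over all genes that were higher at 24 h.

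The deepest fall was in scaffold00145.g5109, from 235 and 240.3 scaled FPKM at 12 h to 21.6, 20.9 and 23.3 at 24 h. The groups did not overlap, which the choice of the genes shown by ID required. The means of 238 ± 3.63 (SD, n = 2) and 22.0 ± 1.25 (SD, n = 3) differed 10.8-fold. The log2 change was -3.38 (limma adjusted p = 2.3e-13, SE 0.0438). It left rank 398 for rank 5296.

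The largest loss of transcript was in scaffold00069.g2383, the highest gene at 12 h. Its values were 4307 and 4380 scaled FPKM at 12 h and 1131, 1123 and 1104 at 24 h, where it ranked at 67. The fall was 3.88-fold by means, with a log2 change of -1.96 (limma adjusted p = 3e-15, SE 0.0153). It made up 3.13% of the summed loss. It shares its scaffold with scaffold00069.g2456, which rose, and lies 73 gene numbers before it.

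Diacylglycerol acyltransferase DGAT1A, which makes triacylglycerol from diacylglycerol, stood near the middle of the transcriptome. Its levels were 25.6 and 24.6 scaled FPKM at 12 h and 22.4, 21.9 and 22.6 at 24 h. All 24 h values were below both 12 h values, by a small margin, with a log2 change of -0.17 (95% interval -0.29 to -0.04, limma adjusted p = 0.022). The interval lies within the limits used for a steady gene. The call was lost without 12 h replicate 1 (-0.14, limma adjusted p = 0.13), without 24 h replicate 2 (-0.15, limma adjusted p = 0.06) and with the replicate number as a block (-0.15, limma adjusted p = 0.061).

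**Figure D3:**
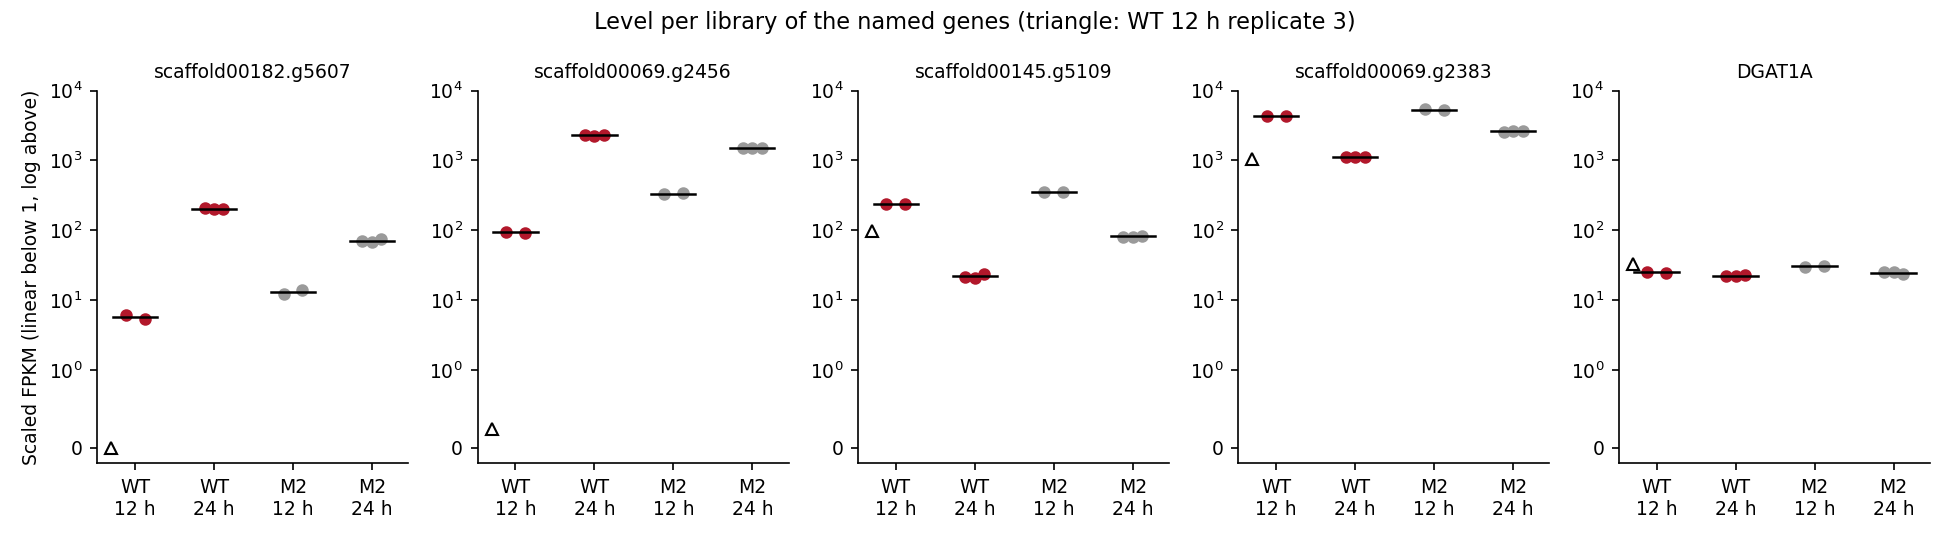
Scaled FPKM of the named genes in each library (vertical axis, linear below 1 and logarithmic above), with WT in red, M2 in grey, group means as bars and WT 12 h replicate 3 as an open triangle. In the 4 genes shown by ID the WT groups are far apart and M2 moves the same way by less, while DGAT1A lies between 21.9 and 30.9 outside the triangle.

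The change touched the top of the transcriptome. The 10 highest genes at 12 h held 5.53% and 5.61% of summed FPKM in the 12 h libraries, and the 10 highest of each 24 h library held 4.24% to 4.29%. For the 100 highest genes the shares were 23.9% and 24.1% at 12 h and 23.2% to 23.4% at 24 h. The 24 h values were the lower in every library, with a difference of -0.626 percentage points, and an exact permutation test, made 2-sided by doubling the smaller tail, gave p = 0.2, the smallest p that 2 against 3 libraries allow in this form. The 1000 highest genes showed no such separation, at 58.9% and 59.1% against 59.0% to 59.2%.

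Lists of the 10 highest genes at 12 h and at 24 h shared 3 genes, those of 100 genes shared 72 and those of 1000 shared 832. All 10 genes at the top at 12 h were called lower at 24 h. Of the 100 highest genes at 12 h, 59 were called lower and 38 higher, beside 33.0% and 33.1% of all tested genes. Genes picked as highest at 1 time tend to be lower at the other by the way they are picked, so these counts describe the turnover only. Calls were also more frequent at high levels. Of genes above 200 FPKM in M2 92.6% were called in WT, against 57.6% of those of 5 to 20 FPKM.

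Summed over genes, gains came to 15.9% and losses to 16.9% of the scaled FPKM at 12 h. The 113 largest gains held 50% of all gain and the 145 largest losses held 50% of all loss. The 10 largest gains made up 10.1% of all gain and the 10 largest losses 13% of all loss. Genes called at least 2-fold higher contributed 22.8% of the gain, and their share of summed FPKM rose from 2.18% to 2.19% at 12 h to 5.87% to 5.88% at 24 h. Genes called at least 2-fold lower contributed 14.8% of the loss, and their share went from 3.98% to between 1.49% and 1.5%. The rest of both sums lay in genes not called at least 2-fold.

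Neighbouring genes tended to change alike. Gene numbers run upward along the scaffolds in the files, and adjacent numbers on a scaffold were taken as neighbours, which the files do not state. Over 8728 pairs of tested neighbours, the WT log2 changes gave a Pearson r of 0.183 and a Spearman rho of 0.17, and 56.4% of pairs had the same sign. At a distance of 2 genes r was 0.038, and at 20 genes it was 0.000 with 50% of the same sign. These correlations are descriptions across gene pairs, which share genes and libraries.

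Large changes also lay side by side. Of 333 risers of at least 2-fold with a tested neighbour, 55 (16.5%) were next to another such riser, whereas 6.23% of all genes were. Of 160 such fallers, 34 (21.2%) were next to another faller, against 2.94% of all genes. Pairs of neighbours with at least 2-fold changes in both numbered 57, of which 31 rose together, 19 fell together and 7 went in opposite directions. At 20 genes apart such pairs numbered 23, with 9, 3 and 11. The longest unbroken run had 6 risers, and the longest of fallers had 5.

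The named genes show both kinds of neighbourhood. The gene numbered just before scaffold00145.g5109 went from 100.3 and 104 scaled FPKM at 12 h to 13.5, 13.6 and 11.3 at 24 h, a log2 change of -2.91 (limma adjusted p = 2.1e-10), while the gene after it changed by 0.33. The gene after scaffold00182.g5607 went from 527 in both 12 h libraries to 1455, 1415 and 1419, a log2 change of 1.44 (limma adjusted p = 1.2e-13), and the gene before it changed by 0.27. Before scaffold00069.g2456 a low gene rose from 3.09 and 3.11 to between 20.2 and 20.4, a log2 change of 2.38 (limma adjusted p = 6.4e-05). The gene after scaffold00069.g2456 changed by 0.19, which was not called (limma adjusted p = 0.23). Neither neighbour of scaffold00069.g2383 followed its fall closely, with log2 changes of -0.26 and 0.37.

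The libraries carry no strand, so reads of overlapping neighbours cannot be told apart. Deviations of the WT 24 h replicates from their mean correlated between adjacent genes at r = 0.005, against 0.183 for the time change. In M2, which shares no library with WT, the time changes of adjacent genes correlated at r = 0.196. Across genes, the time changes of M2 and WT correlated at r = 0.769. These correlations do not measure shared reads, whose part in the likeness of neighbours was not tested.

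**Figure D4:**
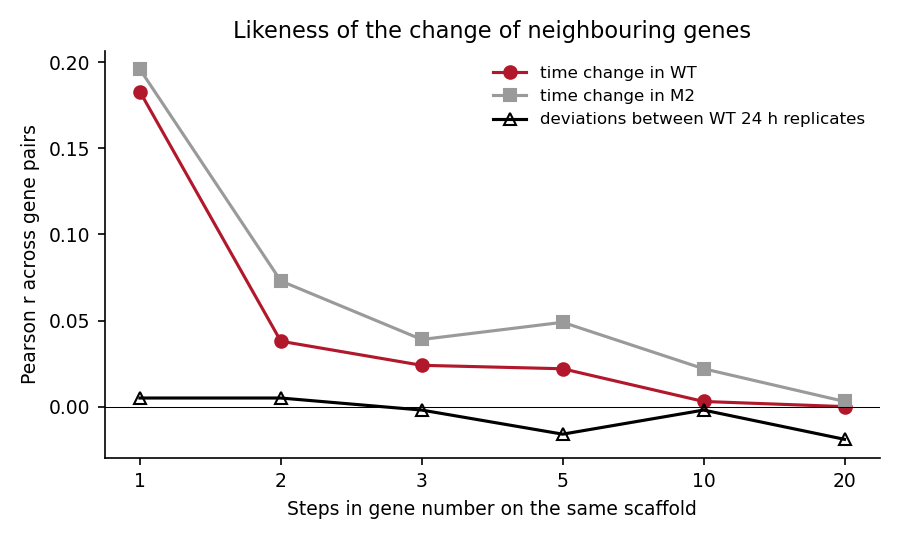
Pearson r across pairs of tested genes on a scaffold (vertical axis) by their distance in gene numbers (horizontal axis, unevenly spaced steps), for the time change in WT (red), the time change in M2 (grey) and the replicate deviations at 24 h in WT (black). The time changes fall from 0.183 and 0.196 at 1 step to 0.000 and 0.003 at 20 steps, while the deviations stay between -0.019 and 0.005.

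The medians of whole scaffolds lay close together. On the 33 scaffolds with at least 50 tested genes (8632 genes), the median log2 change lay between -0.122 and 0.138. All 33 held at least 1 gene that rose 2-fold or more, making up 1.54% to 9.30% of their genes. Such fallers were on 30 of them and made up at most 5.08%.

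Most of the large WT changes had the same direction in M2, where the balance of rises and falls was another. In M2 6713 genes (70.1%) had a change called, and 774 were at least 2-fold higher and 89 lower (8.08% and 0.929% of those tested), against 338 and 164 in WT. Of the WT risers 202 were also called at least 2-fold higher in M2, which is 59.8% of the WT list and 26.1% of the M2 list. Another 121 rose in M2 by less than 2-fold, 13 were not called and 2 fell. Of the WT fallers 59 fell at least 2-fold in M2 too, 36.0% of the WT list and 66.3% of the M2 list, 91 fell by less, 9 were not called and 5 rose. The median WT faller had log2 changes of -1.20 in WT and -0.87 in M2, and the median WT riser 1.19 and 1.14. These lists were chosen on WT, which favours a larger change there.

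The difference of the time changes itself, the interaction of line and time, was called for 3415 of all tested genes (35.7%, limma adjusted p under 0.05). Among them, 793 had a change called in both lines in the same direction and larger in WT, and 985 one larger in M2. A rise in WT with a fall in M2 was called for 130 genes, and a fall in WT with a rise in M2 for 118. Another 564 had a change called in WT and not in M2, 799 in M2 and not in WT, and 26 in neither line. On the main scaling, at least 2-fold differences were mostly towards M2, with 186 genes whose log2 change was higher there and 33 whose change was higher in WT. With WT 12 h replicate 3 in the fit, 34 genes were called.

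The 4 genes shown above by ID moved in M2 in the same direction and by less. Scaffold00182.g5607 went from a mean of 12.9 to 71.1 scaled FPKM in M2, a log2 change of 2.37, which differed from WT by -2.56 (limma adjusted p = 1.6e-08, SE 0.0975). For scaffold00069.g2456 the M2 change was 2.16, different by -2.45 (limma adjusted p = 3.3e-12, SE 0.0338). Scaffold00145.g5109 changed by -2.11 in M2, different by 1.27 (limma adjusted p = 8.1e-08, SE 0.0619), and scaffold00069.g2383 by -1.02, different by 0.94 (limma adjusted p = 3.2e-10, SE 0.0216). As they were picked for the size of the WT change, a smaller change in M2 is favoured by the choice. DGAT1A fell in M2 by 0.29 on the log2 scale, and its interaction of -0.13 was not called (limma adjusted p = 0.24, SE 0.0794).

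**Figure D5:**
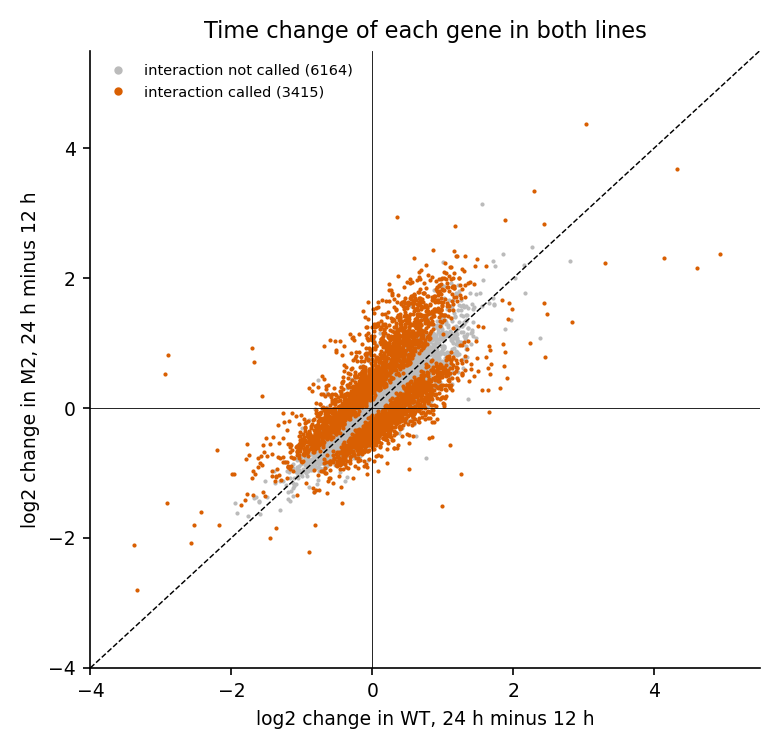
Log2 change from 12 h to 24 h of each tested gene in WT (horizontal axis) and in M2 (vertical axis), with the 3415 genes whose interaction was called in orange and a dashed line of equal change. Points above the line on the right are genes that rose more in M2, and the risers farthest to the right, at a WT change of 4.60 and 4.93, lie below it.

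Replicate 3 of WT at 12 h did not follow the other 12 h libraries. With it in the fit the counts were 720 higher and 807 lower in place of 3175 and 3163, and the median standard error was 0.229. All 1527 of these genes were also called without it in the same direction, which is favoured because both fits share the other 10 libraries. Genes called at least 2-fold numbered 210 higher and 113 lower, and steady genes 1614. Of the 338 risers, 177 (52.4%) had a lower value in replicate 3 than in any 24 h library and 146 a higher value than in any, while 49.1% of all tested genes were lower. Of the 164 fallers, 116 (70.7%) had a higher value in replicate 3 than in any 24 h library, as did 46.9% of all tested genes. The median log2 difference between the 24 h libraries and replicate 3 was 0.31 for the risers, against 1.19 with replicates 1 and 2 and 0.04 for all tested genes with replicate 3. At least 2-fold differences in the called direction from replicate 3 were seen for 120 of the 338 risers and 67 of the 164 fallers. Among all called genes they were seen for 769 of the 3175 higher and 482 of the 3163 lower. The share of all tested genes with such a difference was not counted, so these counts do not show agreement with replicate 3. Large differences from replicate 3 were common: the SD of its log2 ratio to a 24 h library was 1.47 to 1.48.

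Among the named genes, replicate 3 listed scaffold00182.g5607 at 0 and had 0.236 scaled FPKM of scaffold00069.g2456, both below the other 12 h libraries. It had 96.2 of scaffold00145.g5109, between the groups. For scaffold00069.g2383 it had 1042, below all 24 h libraries. With replicate 3 in the fit the log2 change of scaffold00069.g2383 was -1.27 and the call was lost (limma adjusted p = 0.1). DGAT1A had 33.1 in replicate 3, above every other WT library, and its call was lost too, at -0.30 (limma adjusted p = 0.16). When all 6 WT libraries were fitted without M2, scaffold00069.g2456 also missed the threshold, at a log2 change of 6.70 (limma adjusted p = 0.12), as did scaffold00069.g2383, at -1.25 (limma adjusted p = 0.35).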

How the data were processed

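Poly(A) RNA of 12 labelled samples was measured in 4 groups, WT and M2 at 12 h and 24 h. The authors deposited FPKM values in 1 table per group and 2 tables of merged groups. Per the submitters' processing notes, the tools were TopHat2 2.0.4 with Cufflinks 2.0.2. The build and the gene models, like any normalization across tables, were not given in the sources used here. Each group has its own table, so a difference between times and one between tables cannot be told apart. Depth is unknown, and FPKM cannot enter a count model. From the most frequent ratio of values under 1 FPKM, 1 read was estimated to be worth 1.28 times as much in WT 12 h replicate 2 as in replicate 1. Between 24 h replicates the estimate was 0.881 to 0.969, later against earlier. These estimates are rough: the 12 h ratio rests on 19 of 136 genes, with 11 at the next most frequent ratio. Those at 24 h rest on 10 to 18 of 94 to 100 genes, with 5 to 7 at the next.

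The last M2 12 h column repeats the header of replicate 2 and equals 0.723 times replicate 1 within 0.1% for 9646 of 9647 genes. This 1 column was not used. The other 10 libraries without WT 12 h replicate 3 were scaled by median-of-ratios factors, filtered at a mean FPKM of 1 and tested on log2(scaled FPKM + 1) with limma 3.58.1 in R 4.3.3, with group means, an intensity trend, no replicate block, 2-sided, Benjamini-Hochberg adjustment over all 9579 genes and a threshold of 0.05. All groups share 1 estimate of spread. In simulated data for WT 24 h against 12 h (9627 genes), 98 of 100 genes changed by 1 on the log2 scale were recovered, 42 of 100 changed by 0.3, and 7 of 9427 unchanged genes were called. Changed genes were drawn from those with a mean FPKM of at least 5, with independent normal noise. They were a small share of all genes, whereas 66.2% were called in the data. The simulated counts therefore do not give the recovery or the false calls of the real fit. Descriptions used pandas 2.3.3 and numpy 2.4.6 in Python 3.11.15, and plots used matplotlib 3.10.9.

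Named genes were, among 6137 called genes with at least 5 FPKM in a WT group and no overlap between times, those with the highest and lowest log2 change and the largest gain and loss of scaled FPKM. DGAT1A was added for its name. Alternatives were other pseudocounts, filters, scalings, moderation, a replicate block, WT libraries only, a minimum fold of 2, replicate 3 included and each library left out. The comparison, the left-out library, the lists and the tests were chosen with earlier results of these data known.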

Additional observations from a re-analysis of the deposited data

Results flagged for a closer look

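The change with time differed between WT and M2, by the test of the interaction of line and time, for 3415 genes (limma adjusted p under 0.05, all tested genes). With WT 12 h replicate 3 in the fit this count was 34. Each of the 4 genes shown by ID was among the 3415. The log2 change in M2 minus that in WT was -2.56 for scaffold00182.g5607, -2.45 for scaffold00069.g2456, 1.27 for scaffold00145.g5109 and 0.94 for scaffold00069.g2383, and these genes had been picked for the size of their WT change. Groups of 3 libraries or fewer were not tested for single outlying values.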

How the results depend on the processing

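Counts are given in the order genes called, called at least 2-fold higher, called at least 2-fold lower, steady, and interaction called, which were 6338, 338, 164, 4936 and 3415. Filters, scalings, moderation settings, a pseudocount of 0.1 and a fit of the WT libraries only kept each count they give within 1.5 times. A pseudocount of 5 gave 128 higher and 101 lower at 2-fold, by construction smaller folds. A minimum fold of 2 as the null gave 154 called, 86 higher and 68 lower, and 19 for the interaction, by construction fewer. Including WT 12 h replicate 3 gave 1527 called, 210 higher, 1614 steady and 34 for the interaction, and a fit of the WT libraries only with replicate 3, chosen after the data were seen, gave 300, 88, 52 and 845. Leaving out a WT library gave 5558 to 5919 called, 338 to 381 higher, 163 to 171 lower, 4300 to 4623 steady and 2919 to 2997 for the interaction, and where 1 library was left at 12 h it was assumed to vary like the other groups. Of the genes with the interaction called, 57.3% had the higher log2 change in M2, and 65.0% after scaling to an equal sum. FPKM as deposited gave 2154 towards M2 and 1292 towards WT. Quantile normalization gave 1665 and 1608, a nearly even split, so the tilt towards M2 depends on the scaling. The share of the 100 highest genes differed by -0.626 percentage points, by -1.30 for 10 genes, 0.106 for 1000 genes, -3.34 with replicate 3, and -0.735 to -0.517 without 1 library. A shared replicate number was not treated as a pair in the main fit. Deviations of same-numbered WT libraries correlated at r = -0.005 and -0.0076, which cannot show that no pairing exists. The replicate block gave 6105 called, 337 higher, 164 lower, 4767 steady and 3217 for the interaction. Beyond what is stated to follow by construction, the cause was not tested. Unknown depth limits what can be said of genes at 0.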

Other observations

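The authors' merged WT 12 h column was compared with its replicates. It was matched, with a median deviation of 0.023%, by a weighted sum of replicates 1, 2 and 3 with weights 0.254, 0.258 and 0.341, so that 40.0% of the weight lay on replicate 3 and the weights summed to 0.853. The merged WT 24 h column had equal weights of 0.334. In the authors' merged columns scaffold00182.g5607 went from 2.95 to 209.2 FPKM, a ratio of 70.8, whereas the replicates without replicate 3 gave 35.7. For scaffold00069.g2383 the merged columns fell 2.20-fold and the replicates 3.88-fold. On log2(FPKM + 1) of the authors' merged columns 861 of the tested genes were at least 2-fold higher and 509 lower at 24 h, with no test possible. These counts include an upward shift of all genes, with a median log2 change of 0.289 in the merged columns. Of the 338 risers 193 were among these, and 74 had a negative change. Of the 164 fallers 54 were among these, and 0 had a positive change. That 0 was fixed in advance: the weights of replicates 1 and 2 alone keep the merged 12 h value of such a faller above its 24 h value. DGAT1A, which had a log2 change of -0.17 in the replicates, went from 21.9 to 22.8 FPKM in the authors' merged columns, a ratio of 1.04.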
